A study of Mus musculus with 12 samples.

Results

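Hepatic lipase (Lipc) and 9 further genes of triglyceride hydrolysis were followed in livers of hFIX-R29X mice treated with an antisense oligonucleotide (ASO) against Upf3b. The set was given by symbol as Lipc, Lipg, Lpl, Lipa, Lipe, Pnpla2, Pnpla3, Abhd5, Mgll and G0s2, and all 10 were found through their Ensembl transcript identifiers among 31114 genes. They were covered by 34 transcripts. Lipc was chosen by its counts in these same livers, as the gene with the lowest log2 fold change between Upf3b-ASO and control livers among those called changed, so its values in that contrast are a description without a test. The other 9 were chosen by function, but with earlier results of these data known. Of the 10 genes, 9 reached the expression filter, a TPM (abundance of a transcript per length, scaled to a fixed total) of 5 or more in 4 or more of the 12 livers, as did 8846 genes in all. Pnpla3 did not reach it, with a TPM of 5 or more in 2 livers.

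The hFIX-R29X mice have no mouse F9 gene. Their transgene is a human coagulation factor IX minigene that holds a nonsense codon under the human transthyretin promoter, which is active mainly in hepatocytes. They were 8 to 14 weeks old and formed 3 groups of 4, each with 2 females (replicates 1 and 2) and 2 males (replicates 3 and 4). Each group received 6 doses at intervals of 5 days and livers were taken 48 h after the last. The first group received DPBS, the vehicle, the second a scrambled Control-GalNAc-ASO at 15 mg/kg and the third the Upf3b-GalNAc-ASO at 10 mg/kg, so the 2 ASO groups also differed in dose. GalNAc is a sugar ligand that directs an ASO to hepatocytes through the asialoglycoprotein receptor. UPF3B is a factor of nonsense-mediated mRNA decay (NMD), the pathway that degrades mRNAs with a premature stop codon.

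Lipases release fatty acids from the glycerides and phospholipids of lipoproteins and of stored fat. Hepatic lipase is made by hepatocytes and hydrolyzes the triglycerides and phospholipids of lipoprotein remnants and HDL. Endothelial lipase and lipoprotein lipase belong to the same family and also act on circulating particles. Inside the hepatocyte, stored triglyceride is broken down stepwise at the lipid droplet and in the lysosome, and the released fatty acids are oxidized, signal or re-enter lipoproteins.

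The sequence of the Upf3b-ASO, as the study lists it for the unconjugated compound, and its site in the target are shown to make clear which match an mRNA would need in order to be bound in full. The ASO is a 3-10-3 gapmer of 16 bases, and capitals mark the 10 deoxy bases at which RNase H can cut a bound RNA. In the site, written in the sense of the mRNA with 7 flanking bases on either side, capitals mark the full complement of the ASO.
Upf3b-ASO: ggaTATAGATGTAacg
Upf3b site: atagtcaCGTTACATCTATATCCtgtgtct
The site lies at chromosome X, 37091973 to 37091988 of GRCm38, minus strand, in the 3′ UTR and within exon 10 of 10 of Upf3b. Among the spliced annotated transcripts of 8840 tested genes, Upf3b was the only gene with at most 1 mismatch to the ASO, which is 0.0113% of genes. Allowing 2 mismatches added Hsd3b3, Ilf2, Abcc2, Klhl5 and Zfp280d, none of which was called changed. Their log2 differences from control ASO were -1.14, 0.19, -0.57, 0.25 and -0.31. At most 3 mismatches were found in 72 genes, of which 9 were called lower and 3 higher. Of all genes tested, 5.95% were called lower and 4.34% higher. The part of these partial matches in the differences was not tested. The closest place in Lipc had 5 mismatches and no unbroken match longer than 5 bases, and those in the other members had 5 to 7 mismatches. At most 5 mismatches were found in 53.2% of genes on the sense strand and in 55.1% on the antisense strand. Introns were not searched. The closest place in Lipc was in Lipc-201, a spliced transcript of 1919 bases, while the gene spans 154 kb. Sites in the rest of the gene were not looked for, and binding of the ASO to Lipc RNA was not tested.

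The libraries held between 13277892 and 20387682 estimated counts per liver. Upf3b mRNA was 9.52 ± 1.79 CPM (counts scaled to a common library size; SD, n = 4) in control ASO livers and 0.972 ± 0.434 CPM in Upf3b-ASO livers, 10.1% of the control value (edgeR adjusted p = 7.4e-05). The hepatocyte markers Alb and Ttr were high in every liver, and the 9 hepatocyte markers found in the files summed to 72491 to 102136 CPM with DPBS, 69698 to 101138 CPM with control ASO and 53374 to 90646 CPM with the Upf3b-ASO. Most of each sum was Alb, at 65128 to 77739 CPM in females and 31041 to 55992 CPM in males. Of 63 markers of 9 cell types, 62 were found, 39 tested and 2 called lower under the Upf3b-ASO by edgeR, namely Serpina1c of hepatocytes and Rgs5 of stellate cells. Of all genes, 10.3% were called and 5.95% called lower. The pancreatic lipase gene Pnlip was at 0 in all livers. A male of the control ASO group, replicate 3, stood apart from the other livers, where the metallothionein gene Mt2 was at 1839 CPM while the rest of its group ranged from 6.39 to 55.2 CPM, and several values below are also given without it. A female of that group, replicate 1, differed in erythroid markers, with Hba-a2 at 1109 CPM and at 78.6 to 164 CPM in every other liver. Liver tissue was sequenced in bulk, so fewer cells of a type and less RNA per cell cannot be told apart.

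The levels of the 10 genes were first ordered on the TPM scale, which accounts for transcript length. In DPBS livers Lipc was the most abundant at 118 ± 41.7 TPM (SD, n = 4), followed by Lipa at 99.6 ± 28.9 and Mgll at 81.7 ± 19.1 TPM, and the ranges of these 3 neighbours in the order overlapped. G0s2 (40.5 ± 10.0), Abhd5 (26.8 ± 2.63) and Pnpla2 (21.9 ± 1.85 TPM) came next, each overlapping its neighbour, while G0s2 did not overlap Mgll. Lipg at 11.2 ± 3.33 TPM was separated from Pnpla2 above and from Lpl below. Lpl (5.77 ± 0.576), Lipe (4.82 ± 0.554) and Pnpla3 (2.93 ± 3.52 TPM) closed the order with overlapping ranges. The control ASO group had the same order except that Pnpla2 and Abhd5 changed places. In Upf3b-ASO livers Lipc was 9th of 10 at 1.83 ± 0.792 TPM, below Lipe at 3.74 ± 0.504 TPM without overlap, and overlapped only Pnpla3 at 1.43 ± 1.66 TPM. The share of Lipc in the summed TPM of the 10 genes was 28.6% with DPBS, 26.3% with control ASO and 0.768% with the Upf3b-ASO, and its rank among all genes by mean TPM went from 918 with DPBS to 10932.

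Lipc (ENSMUSG00000032207, chromosome 9, 70798128 to 70952226, minus strand) spans 154 kb and is represented in the files by a single coding transcript of 9 exons, Lipc-201. Its level in replicates 1 to 4 was 230, 189, 150 and 137 CPM with DPBS and 161, 219, 110 and 154 CPM with control ASO. In the Upf3b-ASO group it was 3.73, 2.23, 3.80 and 1.46 CPM. Every treated liver, female or male, lay far below every liver of the other groups. The lowest control ASO liver was 28.9-fold above the highest treated liver, and the lowest DPBS liver 36.2-fold. These treated levels rested on 52, 41, 57 and 22 estimated counts, against 1520 to 4419 counts in the other 8 livers, so Lipc mRNA was still detected in all 4 treated livers. The fitted log2 difference was -5.83 ± 0.29 (SE) from control ASO, which leaves 1.75% of the control level, and -5.97 ± 0.29 from DPBS, which leaves 1.60%. Mt2, Mt1 and Lcn2 had more negative fitted values against control ASO, at -7.04, -6.87 and -5.90, but rested on control ASO replicate 3 and were not called. The next gene among those called was Sil1, at -3.92 ± 0.19.

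**Figure D1:**
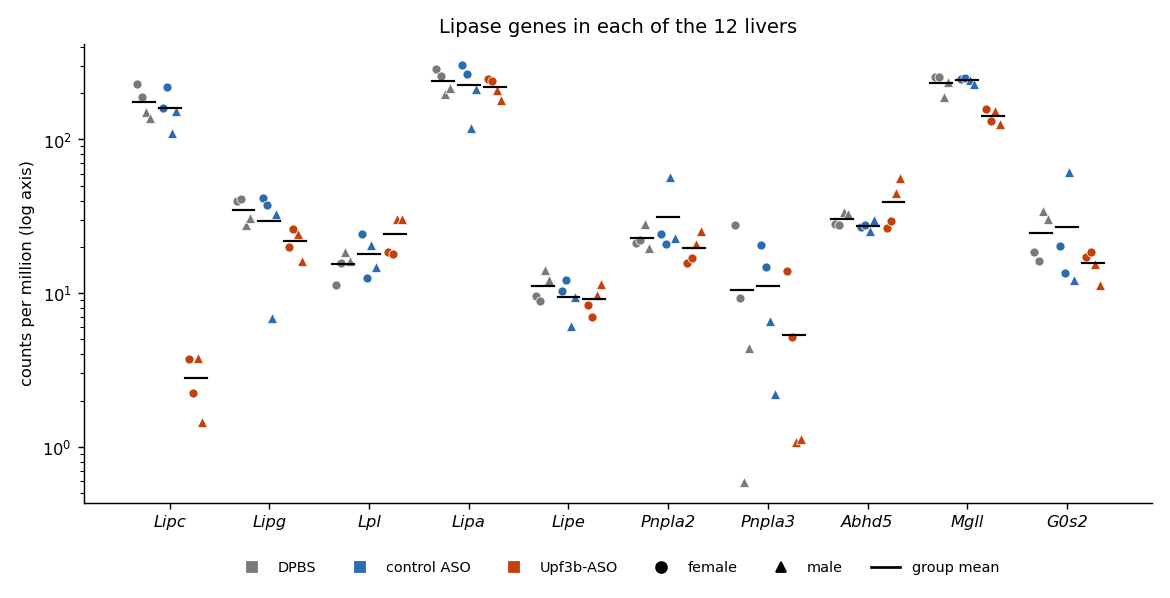
Normalized counts (CPM, log axis) of the 10 genes in each of the 12 livers, with circles for females, triangles for males and a black line for the mean of each group of 4. The 4 Upf3b-ASO livers lie between 1.46 and 3.80 CPM for Lipc, with the other 8 at 110 or more, and between 126 and 157 CPM for Mgll, below the other 8 at 189 or more.

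Endothelial lipase, Lipg (ENSMUSG00000053846, chromosome 18, 74939322 to 74961263, minus strand), acts mainly on HDL phospholipids. It was at 39.9, 41.0, 27.8 and 30.8 CPM with DPBS, 41.4, 37.3, 6.85 and 32.7 CPM with control ASO and 20.1, 26.3, 24.1 and 16.3 CPM with the Upf3b-ASO. All 4 treated livers were below all 4 DPBS livers, which was so for 12% of genes tested, and below 3 of the 4 control ASO livers, the exception being replicate 3. The log2 difference was -0.38 ± 0.37 from control ASO (edgeR adjusted p = 0.53) and -0.66 ± 0.37 from DPBS (adjusted p = 0.32), and neither was called. Without control ASO replicate 3 both were called, at -0.71 (edgeR adjusted p = 0.003) and -0.66 (adjusted p = 0.0024). The 8 liver endothelial markers summed to 525 to 593 CPM with DPBS, 333 to 615 CPM with control ASO and 431 to 565 CPM with the Upf3b-ASO, and none of the 8 was called by edgeR. The part of these cells in the Lipg values was not tested.

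Lipoprotein lipase, Lpl (ENSMUSG00000015568, chromosome 8, 68880491 to 68907448, plus strand), hydrolyzes the triglycerides of circulating particles and is low in adult hepatocytes. It was at 11.3, 15.7, 18.5 and 16.3 CPM with DPBS, 24.3, 12.5, 20.7 and 14.8 CPM with control ASO and 18.6, 18.1, 30.3 and 30.5 CPM with the Upf3b-ASO. The 2 treated males held the highest values of the 12 livers, whereas the 2 treated females lay within the range of the control ASO livers. The log2 difference was 0.39 ± 0.23 from control ASO (edgeR adjusted p = 0.28) and 0.64 ± 0.22 from DPBS (adjusted p = 0.11). Against control ASO the call turned on a single animal, since Lpl was called higher without control ASO replicate 1 (0.67, edgeR adjusted p = 0.031). Against DPBS it was called without control ASO replicate 1 (0.63, adjusted p = 0.027) or replicate 3 (0.65, adjusted p = 0.047). Those livers are not in that comparison and enter it only through the shared fit. A fit of only DPBS and Upf3b-ASO livers also called Lpl (0.64, edgeR adjusted p = 0.0046). The 9 Kupffer cell and macrophage markers, whose cells also express Lpl, summed to 306 to 465 CPM with DPBS, 321 to 793 CPM with control ASO and 409 to 559 CPM with the Upf3b-ASO, and none of the 8 tested was called by edgeR. All of them but Cd68 were highest in control ASO replicate 1, which also held the highest Lpl of its group. Clec4f was at 204 CPM there and at 46.1 to 141 CPM in every other liver. The part of these cells in the Lpl values was not tested.

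Mgll (ENSMUSG00000033174, chromosome 6, 88724412 to 88828360, plus strand) encodes monoacylglycerol lipase, which splits the last fatty acid from glycerol and also degrades the endocannabinoid 2-arachidonoylglycerol. It was at 255, 255, 189 and 236 CPM with DPBS and 246, 252, 243 and 229 CPM with control ASO. In Upf3b-ASO livers it was at 157, 131, 153 and 126 CPM, below every liver of either other group. Mgll fell to 58.5% of the control ASO level, a log2 change of -0.77 ± 0.11 (edgeR adjusted p = 0.0015), and to 60.8% of the DPBS level, -0.72 ± 0.11 (edgeR adjusted p = 0.0023). The log2 difference between control ASO and DPBS was 0.06 ± 0.11 (adjusted p = 0.84). Mgll stayed called against both groups in every alternative fit, including those that left out 1 liver.

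Among the 8 tested members other than Lipc, Mgll was therefore the only one called between Upf3b-ASO and control ASO, against 10.3% of all genes called in that comparison, 4.34% higher and 5.95% lower. An unadjusted p under 0.05 was reached by 3 of the 8 and by 28.0% of all genes. Against DPBS, Mgll was again the only one of 8, with 8.93% of all genes called and 5.36% called lower. A share of 1 in 8 is near these backgrounds. Without control ASO replicate 3 the members called were Mgll and Lipg against control ASO and Mgll, Lipg and Lpl against DPBS, while 2168 and 2540 of all genes were called. The median log2 difference of the 8 was -0.23 from control ASO and -0.26 from DPBS, while the medians over all genes tested were -0.02 and 0.00. Lipe is among the 8 although it passed the filter only through DPBS and control ASO livers. Treated livers lay wholly below control ASO livers for Mgll but not for the other 7, and for 7.69% of all genes. Both comparisons share the treated livers, so they do not count as independent.

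**Figure D2:**
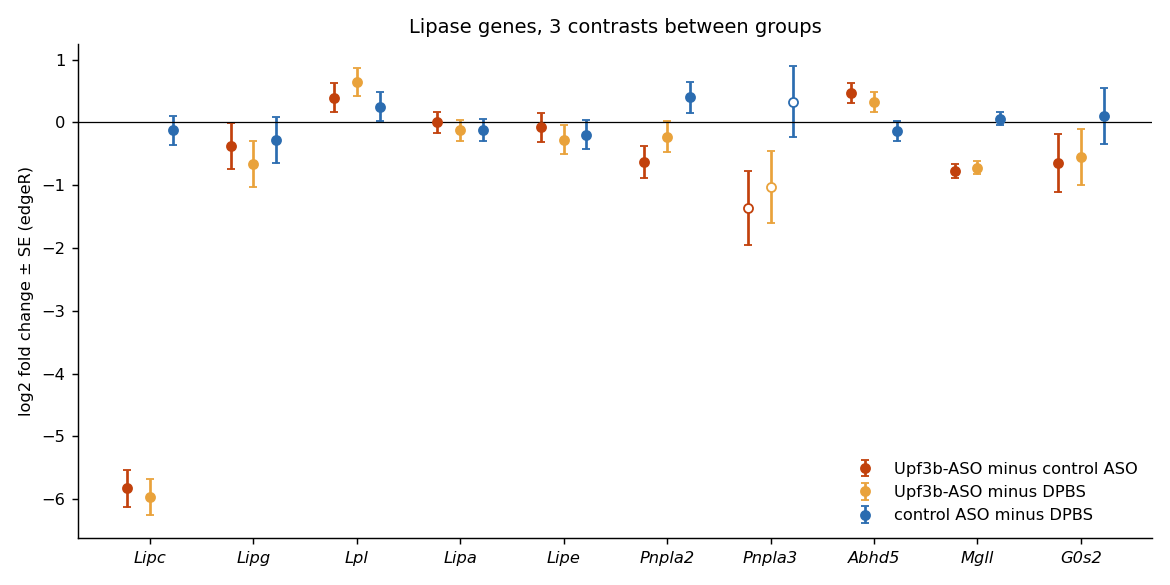
Fitted log2 fold changes (edgeR, bars are SE) of the 10 genes for Upf3b-ASO minus control ASO, Upf3b-ASO minus DPBS and control ASO minus DPBS, with open symbols for Pnpla3, fitted with a lower expression filter. Lipc lies at -5.83 and -5.97 under the Upf3b-ASO, Mgll at -0.77 and -0.72, and all others within 1.36 of 0.

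At the lipid droplet, adipose triglyceride lipase (Pnpla2) makes the first cut in a triglyceride, with Abhd5 (CGI-58) as its coactivator and G0s2 as its inhibitor. Pnpla2 (ENSMUSG00000025509, chromosome 7, 141455198 to 141460743, plus strand) was at 21.2, 22.2, 28.0 and 19.8 CPM with DPBS, 24.1, 20.8, 57.2 and 22.9 CPM with control ASO and 15.7, 17.0, 21 and 25.4 CPM with the Upf3b-ASO. Control ASO replicate 3 was the highest of the 12 livers, and the other groups overlapped. The log2 difference was -0.63 ± 0.25 from control ASO (edgeR adjusted p = 0.14) and -0.23 ± 0.25 from DPBS (adjusted p = 0.65). The difference from control ASO rested on replicate 3 and was -0.24 without it (edgeR adjusted p = 0.25), whereas without replicate 4 it was -0.80 and called (adjusted p = 0.049).

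G0s2 (ENSMUSG00000009633, chromosome 1, 193272161 to 193273217, minus strand) was at 18.4, 16.3, 34.0 and 30.5 CPM with DPBS, 20.4, 13.6, 61.4 and 12.2 CPM with control ASO and 17.3, 18.5, 15.4 and 11.3 CPM with the Upf3b-ASO. Replicate 3 of the control ASO group was again the highest liver. The log2 difference from control ASO was -0.65 ± 0.46 (edgeR adjusted p = 0.37), and 0.01 without that liver. The same liver held 117 CPM of Cidec and 40.3 CPM of Fabp4, against at most 7.88 and 10.5 CPM in the other 11 livers. Both are on the adipocyte marker list. Of its other markers, that liver held Adipoq and Lep at 0, Plin1 at 0.0721, Cfd at 0.288 and Retn at 0.577 CPM. Lep was at 0 in all livers. The part of fat cells in these values was not tested. Over all 7 adipocyte markers, 1 of which was tested and none called, the sum was 4.42 to 9.32 CPM with DPBS, 8.65 to 158 CPM with control ASO and 9.39 to 16.7 CPM with the Upf3b-ASO.

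Abhd5 (ENSMUSG00000032540, chromosome 9, 122351608 to 122381524, plus strand) was at 28.0, 27.7, 33.8 and 32.7 CPM with DPBS, 26.8, 27.7, 25.2 and 30.0 CPM with control ASO and 26.6, 29.6, 44.7 and 56.1 CPM with the Upf3b-ASO. The 2 treated males were above all other livers, while the 2 treated females were within their range. Its log2 difference was 0.47 ± 0.16 from control ASO (edgeR adjusted p = 0.088) and 0.33 ± 0.16 from DPBS (adjusted p = 0.25). With DESeq2 in place of edgeR the first was called, at 0.46 (adjusted p = 0.043). It was 0.30 with a length offset (edgeR adjusted p = 0.29), 0.34 and 0.35 with limma (adjusted p = 0.29 and 0.30) and 0.31 without Upf3b-ASO replicate 4 (edgeR adjusted p = 0.23).

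Lipe (ENSMUSG00000003123, chromosome 7, 25379527 to 25398710, minus strand) encodes hormone-sensitive lipase, which acts on diacylglycerol and cholesteryl esters and is mainly an enzyme of fat tissue. It was at 9.52, 8.83, 14.2 and 12.2 CPM with DPBS, 10.3, 12.2, 6.13 and 9.38 CPM with control ASO and 8.39, 7, 9.79 and 11.5 CPM with the Upf3b-ASO, with all groups overlapping. The log2 difference was -0.08 ± 0.23 from control ASO (edgeR adjusted p = 0.85) and -0.28 ± 0.23 from DPBS (adjusted p = 0.51). Lipe reached the TPM filter in 4 livers, none of them treated, and was at 3.04 to 4.24 TPM in treated livers. It entered these tests only through DPBS and control ASO livers, so its p-values are not a fair test of a difference from them. Pnpla3 (ENSMUSG00000041653, chromosome 15, 84167837 to 84187236, plus strand), a droplet protein related to Pnpla2 and induced by feeding, was at 27.7, 9.33, 0.592 and 4.40 CPM with DPBS. It was at 20.6, 14.9, 6.63 and 2.21 CPM with control ASO and 13.9, 5.16, 1.07 and 1.13 CPM with the Upf3b-ASO, and the spread within each group exceeded the difference between group means. With the TPM filter lowered to 1, which left 12721 genes, its log2 difference from control ASO was -1.36 ± 0.59 (edgeR adjusted p = 0.18).

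Lipa (ENSMUSG00000024781, chromosome 19, 34492318 to 34527474, minus strand) encodes lysosomal acid lipase, which frees cholesterol and fatty acids from lipoproteins taken up by endocytosis. It was at 289, 257, 198 and 217 CPM with DPBS, 306, 267, 119 and 212 CPM with control ASO and 248, 241, 209 and 180 CPM with the Upf3b-ASO. The groups overlapped, and the treated level was 99.7% of that with control ASO (edgeR adjusted p = 0.99) and 91.7% of that with DPBS (adjusted p = 0.72). Lipa was the most abundant of the 10 in treated livers, at 89.2 ± 23.4 TPM.

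Control ASO livers were then set against DPBS livers to see whether a scrambled GalNAc-conjugated ASO was followed by changes in these genes. None of the 9 tested members was called by edgeR, DESeq2 or limma, and none reached an unadjusted p under 0.05 with any of the 3, while 0.0113% of all genes were called by edgeR and 6.97% reached that unadjusted p. The fitted log2 differences ran from -0.28 ± 0.36 for Lipg to 0.40 ± 0.25 for Pnpla2. Both ends rested on control ASO replicate 3, without which they were 0.05 and 0.04 (edgeR adjusted p = 0.94 and 0.96). Lipc itself differed by -0.13 ± 0.23 (edgeR adjusted p = 0.82), with overlapping groups.

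Males and females were compared over all 12 livers. Lipa was called lower in males, at -0.51 ± 0.14 in log2 units (edgeR adjusted p = 0.043), where 10.0% of all genes were called and 5.73% called lower. The 6 females lay between 241 and 306 CPM and the 6 males between 119 and 217 CPM, without overlap. Lipa was the only 1 of 9 members called, and the call was close to the threshold. It was lost when any of 10 of the 12 livers was left out, with edgeR adjusted p from 0.053 to 0.097, and stayed without control ASO replicate 3 (-0.38, adjusted p = 0.0018) or replicate 4 (-0.57, adjusted p = 0.040). Pnpla3 was at 5.16 to 27.7 CPM in females and 0.592 to 6.63 CPM in males, ranges that overlapped. In the fit with the lower TPM filter it was called lower in males at -2.60 ± 0.49 (edgeR adjusted p = 0.0078), as were 4.35% of all genes in that fit. Among the 8 livers without Upf3b-ASO, Lipc ran from 161 to 230 CPM in females and from 110 to 154 CPM in males. Over all 12 livers its log2 difference between males and females was -0.45 ± 0.20 (edgeR adjusted p = 0.20), which was not called. Limma on log2 TPM called it lower in males, at -0.68 and -0.76 with pseudocounts of 1 and 0.1 (adjusted p = 0.024 and 0.032), in fits that called 3062 and 2972 of all genes. These fits used TPM without TMM normalization. With a pseudocount of 1, Lipa, Mgll and Lipg were also lower than by edgeR, at -0.83, -0.41 and -0.86 against -0.51, -0.13 and -0.55. The part of the TPM scale in these limma values was not tested.

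Whether the response to the Upf3b-ASO differed between sexes was tested as the interaction of sex and treatment. No member was called by edgeR, DESeq2 or limma, and by edgeR no gene of the 8846 (0%). An unadjusted p under 0.05 was reached by 2 of 9 members, Abhd5 and Lipe, and by 7.31% of all genes. For Abhd5 the log2 effect was larger in males by 0.83 ± 0.20 (edgeR adjusted p = 0.59), with 44.7 and 56.1 CPM in treated males against 26.6 and 29.6 CPM in treated females. The interaction for Lipe was 1.01 ± 0.31 (adjusted p = 0.59). For Lipc, treated females held 2.23 and 3.73 CPM and treated males 1.46 and 3.80 CPM, and the interaction was 0.37 ± 0.56 (adjusted p = 0.76). That value used the livers by which Lipc was picked and rested on 22 to 57 counts per treated liver. Each mean of group and sex rested on 2 animals, and the control ASO males included replicate 3. Without control ASO replicate 4, which left replicate 3 as the only male of its group, 6 members and 3870 of all 8846 genes were called.

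Since UPF3B acts in NMD, the make-up of each gene in transcripts was examined. Lipc, Lipg, Pnpla3 and G0s2 each had 1 transcript in the files. For the other genes, 17 transcripts that held at least 5% of their gene were compared between Upf3b-ASO and control ASO livers by two-sided exact permutation tests on the share of the gene's counts, and none passed after correction for the 17 tests. With 4 animals against 4 the smallest p is 0.029, and 1 of the 17 reached it. A single transcript at that smallest p could not have passed the correction. Mgll consisted mainly of Mgll-204, which held 91.2 ± 3.36% (SD, n = 4) of its counts with DPBS, 87.9 ± 2.24% with control ASO and 87.6 ± 3.72% with the Upf3b-ASO (exact permutation test, p = 0.89), so the lower level of the gene was that of its major coding transcript.

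The transcript at the smallest p was Pnpla2-204, annotated as an NMD substrate of 10 exons. Its share was 24.3, 31.1, 40.8 and 29.5% with control ASO and 19.7, 12, 2.01 and 0.854% with the Upf3b-ASO, and 6.09 to 42.3% with DPBS. The DPBS livers thus spanned all control ASO livers and 2 of the 4 Upf3b-ASO livers, and the other 2 were below every DPBS liver. Pnpla2-201, which also carries the NMD annotation and resembles it in length (2048 against 1957 bases), had a share of 10.4 ± 14.6% with control ASO and 32.7 ± 17.6% with the Upf3b-ASO (exact permutation test, p = 0.086). The summed share of both NMD transcripts was 41.9 ± 17.7% with control ASO and 41.3 ± 10.0% with the Upf3b-ASO (exact permutation test, p = 0.94), so no difference was seen in their sum. Salmon divides reads that fit several transcripts by estimation, and these shares rested on 0 to 324 counts per liver and transcript.

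Abhd5 also has 2 transcripts with the NMD annotation, which together held 36.5 ± 1.47% with DPBS, 32.7 ± 6.02% with control ASO and 39.7 ± 3.52% with the Upf3b-ASO (exact permutation test against control ASO, p = 0.086). In Lpl, the retained-intron transcript Lpl-202 had a share of 26.3, 48.0, 44.3 and 47.2% with control ASO and 35, 27.8, 17.3 and 14.7% with the Upf3b-ASO (exact permutation test, p = 0.086). Its own level differed less than its share, at 4.44 to 6.52 CPM in treated and 6.00 to 9.15 CPM in control ASO livers. The coding Lpl-201 was at 11.8, 11.8, 23.4 and 24.3 CPM in treated livers and 17.9, 5.77, 11.4 and 6.93 CPM with control ASO. The coding Lipe-204 had a share of 2.05 ± 4.09% with control ASO and 10.5 ± 5.74% with the Upf3b-ASO (exact permutation test, p = 0.057), at no more than 19 counts per liver.

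**Figure D3:**
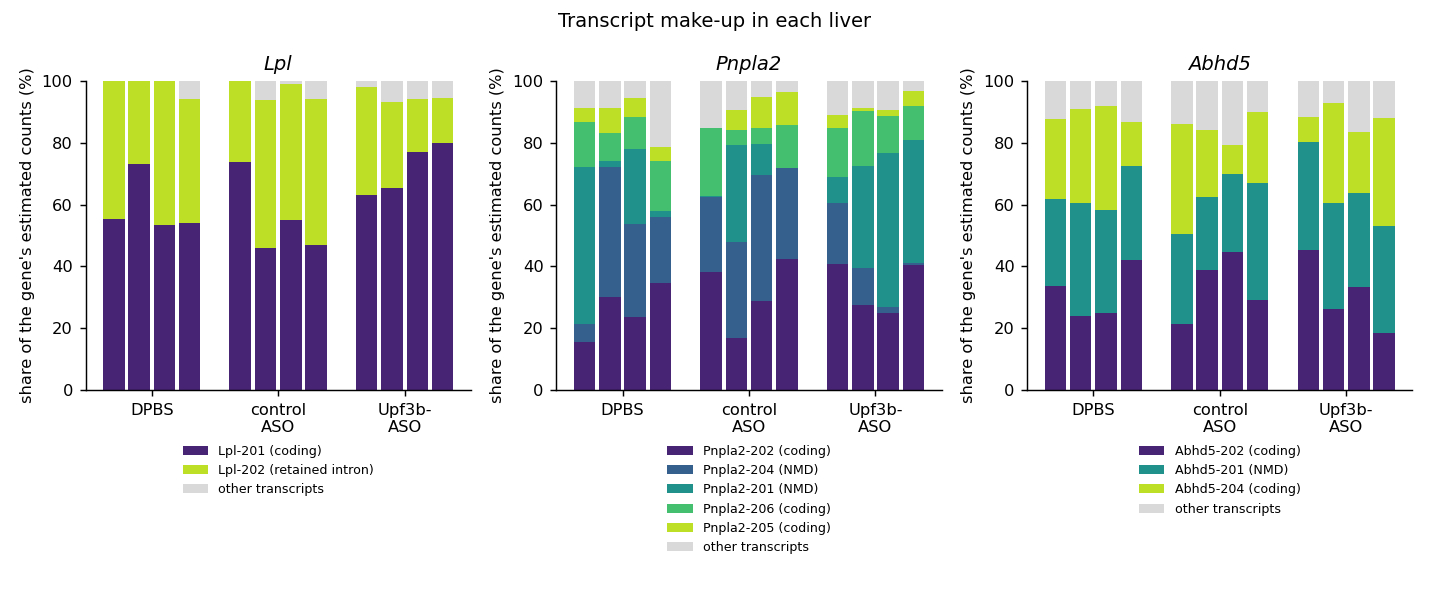
Share of each gene's estimated counts (%) held by its transcripts in each of the 12 livers, 1 bar per liver in the order of replicates 1 to 4, for Lpl, Pnpla2 and Abhd5. The retained-intron transcript Lpl-202 takes 14.7 to 35% in Upf3b-ASO livers and 26.3 to 48.0% in control ASO livers, and the 2 NMD transcripts of Pnpla2 trade shares between livers.

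Genes that work with the lipases were taken from 6 lists, in which 96 different genes were tested and 17 called between Upf3b-ASO and control ASO. The first list held partners and regulators of the plasma lipases. Of its 18 genes, 17 were tested, 1 was called higher and 2 lower, with a median log2 difference of -0.12. Apoc2, the cofactor that lipoprotein lipase requires, rose by 1.19 ± 0.14 in log2 units (edgeR adjusted p = 0.00069), from 82.5, 60.9, 102 and 86.2 CPM to 140, 161, 226 and 237 CPM. Every treated liver was above every control ASO liver. Pcsk6, a proprotein convertase known to cleave plasma lipases, fell by 0.85 (SE 0.10) in those units (adjusted p = 0.00082). Apoa4, an apolipoprotein of triglyceride-rich particles, was called at -2.18 ± 0.61 (adjusted p = 0.048), a size that rested on 1963 CPM in control ASO replicate 3 and was -0.97 without it (adjusted p = 0.0026). Against DPBS Apoa4 differed by -0.29 (adjusted p = 0.82). Angptl4, an inhibitor of lipoprotein lipase, differed by -0.64 (adjusted p = 0.28), or by -0.13 without control ASO replicate 3 (adjusted p = 0.69). Gpihbp1 and Lmf1, which anchor and fold lipoprotein lipase, differed by 0.06 and -0.21 (adjusted p = 0.78 and 0.20). Against DPBS, 1 gene of this list was called higher and 3 lower, among them Lmf1 (-0.40, edgeR adjusted p = 0.038).

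Among proteins of the lipid droplet, 11 of 16 genes were tested, 2 were called higher and none lower by edgeR, with a median of -0.11. Fitm1, which takes part in droplet formation, rose by 1.10 ± 0.22 (edgeR adjusted p = 0.011), from 2.30 and 2.49 CPM in control ASO females and 20.5 and 22.2 CPM in males to 9.03 and 7.06 CPM in treated females and 36.6 and 27.9 CPM in treated males. Treated livers were above control ASO livers within either sex. Faf2, which is known to bind Pnpla2 at droplets, rose by 0.37 ± 0.07 (adjusted p = 0.0098). Against DPBS it differed by 0.19 and was not called (edgeR adjusted p = 0.14).

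The list of other lipid hydrolases of the liver was the one with most calls, with 2 genes called higher and 7 lower among 26 tested of 32, and a median of -0.18. The tested genes included Lipt1, a lipoyltransferase and not a hydrolase, which was not called (0.47, edgeR adjusted p = 0.23). Ces2e, a carboxylesterase, rose by 0.89 ± 0.09 (edgeR adjusted p = 0.00033), from 227, 186, 216 and 204 CPM to 413, 407, 353 and 370 CPM, and Ces1e rose by 0.45 ± 0.12 (adjusted p = 0.043) but was at -0.02 against DPBS. Among those that fell were Lpin1 (-1.23 ± 0.24, adjusted p = 0.0092) and Lpin2 (-1.02 ± 0.27, adjusted p = 0.036), phosphatidate phosphatases that make diacylglycerol, and the monoacylglycerol hydrolase Abhd2 (-1.10 ± 0.14, adjusted p = 0.00086). Neither Lpin gene was called against DPBS (adjusted p = 0.10 and 0.15), and Lpin2 was at 1301 CPM in control ASO replicate 3 and at 514 to 657 CPM in the other 3 livers of that group, with a log2 difference of -0.68 without that liver (edgeR adjusted p = 0.011). The other 4 that fell were Ces1d, which hydrolyzes triglyceride in the hepatocyte, Nceh1, a cholesteryl ester hydrolase, Ces1f and Ces1c. Since members of the Ces1 family resemble one another in sequence, reads may have been split among them and their values are uncertain.

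In triglyceride synthesis, 10 of 12 genes were tested, none was called higher and 3 were called lower, with a median of -0.23. They were Lpin1 and Lpin2, which are in both lists, and Dgat2, which makes the final ester bond and fell by 0.72 (SE 0.10; edgeR adjusted p = 0.0015), from 681, 775, 602 and 583 CPM to 471, 476, 379 and 296 CPM. For lipoprotein particles and their uptake, 1 of 19 tested genes was called, Lcat, which esterifies cholesterol on HDL and fell by 0.44 (SE 0.08; adjusted p = 0.0074), and the median was 0.07. Among regulators of lipase genes, 1 of 15 tested was called, Esr1, the estrogen receptor, at -1.18 ± 0.16 (adjusted p = 0.0012). Esr1 was at 56.2 and 84.3 CPM in control ASO females and 30.8 and 26.1 CPM in treated females, and at 28.3 and 22.9 CPM against 14.5 and 10.1 CPM in males, so the lower level was seen in both sexes. Beside these counts, 10.3% of all genes were called. Without control ASO replicate 3, 28 of the 96 list genes and 24.5% of all genes were called.

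**Figure D4:**
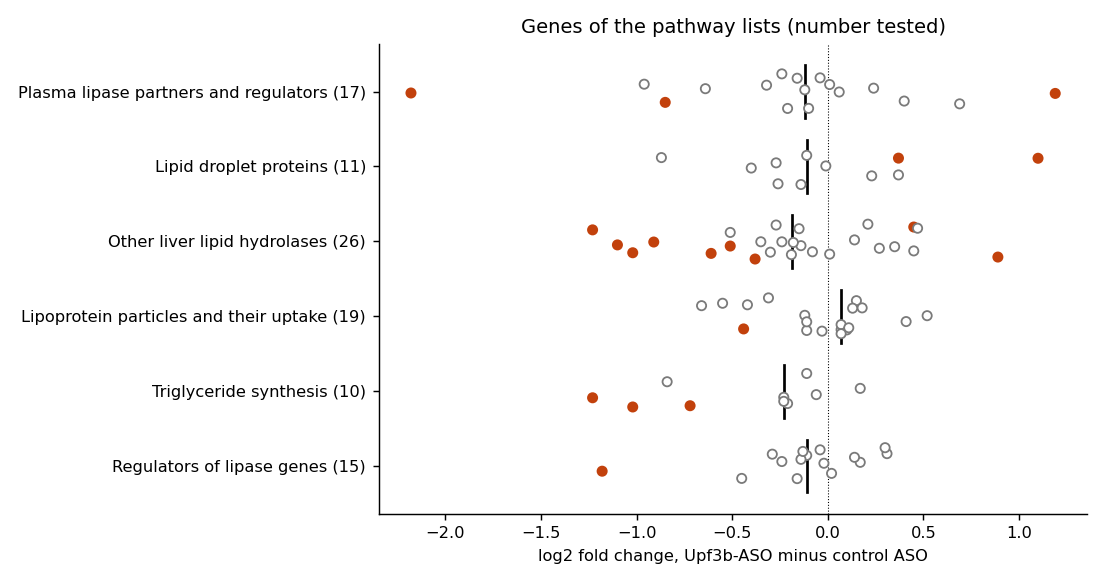
Log2 fold change, Upf3b-ASO minus control ASO, of the tested genes of 6 lists, with 1 point per gene, filled where called at an edgeR adjusted p under 0.05, and a black bar for the median of each list. List medians lie between -0.23 and 0.07, and the lowest point is Apoa4 at -2.18.

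The genes around Lipc were examined because chromosomal position was not used to pick it. Of 10 annotated genes found within 500 kb, 6 passed the filter. None was called by edgeR between Upf3b-ASO and control ASO, where 10.3% of all genes were called. An unadjusted p under 0.05 was reached by 2 of them and by 28.0% of all genes. Adam10, a membrane protease 17.9 kb away, was at 19.2 ± 1.91 CPM with control ASO and 15.8 ± 1.52 CPM with the Upf3b-ASO (log2 difference -0.29 ± 0.10, edgeR adjusted p = 0.11). Aqp9, a glycerol channel of hepatocytes 158 kb away on the other side, was at 481 ± 157 and 460 ± 44.6 CPM (-0.05 ± 0.22, adjusted p = 0.90). Mindy2, Sltm, Rnf111 and Myo1e, 141 to 398 kb away, had log2 differences of -0.45, -0.18, 0.13 and -0.12. Mindy2 was called lower by DESeq2 (-0.45, adjusted p = 0.035), which called 1584 of all genes. Without control ASO replicate 3, Mindy2 (-0.48), Adam10 (-0.33) and Aqp9 (-0.28) were called by edgeR (adjusted p = 0.040, 0.035 and 0.046). In that fit 24.5% of all genes were called. The largest of these differences was -0.53, for Adam10 with a transcript length offset (adjusted p = 0.025), against -5.83 for Lipc. The pseudogene Gm3436 lies within Lipc and was at 0.468 ± 0.568 CPM with control ASO and 0.0950 ± 0.190 CPM with the Upf3b-ASO.

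**Figure D5:**
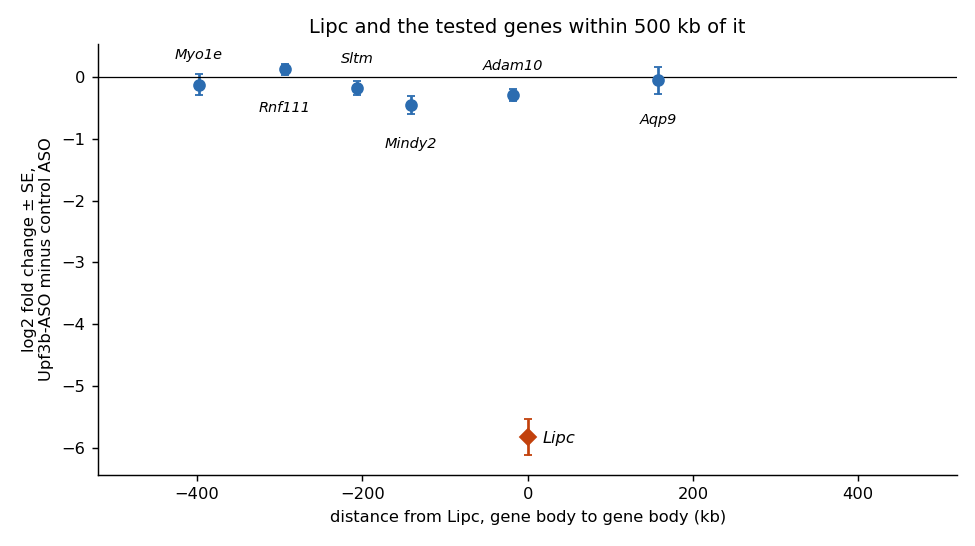
Log2 fold change (edgeR, bars are SE), Upf3b-ASO minus control ASO, against the distance in kb from Lipc, which is drawn as a diamond at 0, for the 6 tested genes within 500 kb. The neighbours lie between -0.45 and 0.13 and Lipc at -5.83.

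The genes whose levels followed those of Lipc most closely over the 12 livers, by Pearson r of log2(CPM + 0.5), were Sil1, Nfia, Chp1, Rabgap1l and Dpyd, with r = 0.99 for each. The livers form separate groups for Lipc, 4 low and 8 high, so that r mainly records the difference between Upf3b-ASO livers and the others. Within the 8 livers without Upf3b-ASO, r was 0.46 for Sil1, 0.81 for Nfia, 0.46 for Chp1, 0.78 for Rabgap1l and 0.01 for Dpyd. Sil1, a nucleotide exchange factor of the endoplasmic reticulum, was at 52.2, 57.0, 49.5 and 59.1 CPM with control ASO and 3.66, 3.26, 5.13 and 2.38 CPM with the Upf3b-ASO. Dpyd, which degrades pyrimidines, was at 389 ± 31.7 and 61.9 ± 18.1 CPM, a log2 difference of -2.65 ± 0.20. Nfia, a transcription factor, differed by -1.62 ± 0.10, Rabgap1l by -1.37 ± 0.12 and Chp1 by -0.64 ± 0.07. Thus genes of the same pattern varied widely in size of difference. Mgll was at r = 0.96, rank 52 of the tested genes, and no other member was above 0.38. By rank the order differed, with a Spearman rho of 0.91 for Mgll, 0.84 for Lipg and 0.64 for Lipa. Lpl and Abhd5 ran the other way, with r = -0.64 and -0.58 and rho = -0.72 and -0.31.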

How the data were processed

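RNA-seq libraries of total liver RNA (TruSeq) were sequenced on an Illumina HiSeq. The authors demultiplexed reads with bcl2fastq 2.17.1.14 and ran Salmon 0.7.2 (quasi-mapping) on the mouse transcripts of Ensembl, build GRCm38. Estimated counts, as deposited, are the reads assigned to each transcript, fractional where shared. TPM values, as deposited, were scaled by the authors over all 92468 transcripts. Transcripts were joined to genes through GENCODE M21, which covered 98.1% of them, and counts were summed per gene and rounded. Because the unjoined transcripts held a varying part of the TPM, between 79.7% and 95.91% of the TPM of a liver was joined. The main tests between livers therefore used counts, while the limma fits used TPM without TMM normalization.

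Genes that reached a TPM of 5 in 4 or more livers were fitted in edgeR 4.0.16 by quasi-likelihood (TMM normalization, all 12 livers, sex as covariate), with Benjamini-Hochberg adjustment over all 8846 genes and a threshold of 0.05. The SE is the absolute log2 fold change over the square root of F. CPM are counts scaled by the TMM-normalized library size, and values are mean ± SD with n = 4 unless stated. Counts were made without molecular identifiers, and the SD includes counting error. The labels gave group, sex and replicate number, each file counting as 1 animal. No replicates agreed within sampling noise, so none was merged. Single values were compared by two-sided exact permutation tests. The fits were tested on simulated data.

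The members and lists were chosen with earlier results of these data known, so no list is independent evidence. Named genes were all 10 members, Upf3b, the 5 genes most like Lipc, its neighbours within 500 kb, up to 3 called genes per list and direction, and up to 5 genes with fewest mismatches to the ASO. Further names (Mt1, Mt2, Lcn2, Serpina1c, Rgs5, markers, list genes that were not called and hydrolases past the first 3) were chosen after their values were seen. Transcripts were searched for the ASO in place of whole gene bodies, as introns were not used here. DESeq2 1.42.0, limma 3.58.1 (log2 TPM with a pseudocount of 1 or 0.1), other filters, a length offset, a replicate block, fits without sex or with 2 groups, a stricter threshold and leaving out each liver were tried. Upf1-ASO livers were not analysed here.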

Additional observations from a re-analysis of the deposited data

Results flagged for a closer look

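Of 30 sets of 4 livers, 10 genes in 3 groups, 2 held a liver that stood apart from the other 3, and both were the same animal, control ASO replicate 3. Its Pnpla2 level was 57.2 CPM, with the rest of its group at 20.8 to 24.1 CPM, a gap of 0.910 of the whole range. Its G0s2 level was 61.4 CPM, against 12.2 to 20.4 CPM, a gap of 0.832 of the range, just past the critical value for 4 samples. Chance alone flags about 1 in 20 such sets. The same liver was the lowest of its group for Lipc, Lipg, Lipa, Lipe and Abhd5, without standing apart by that measure.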

How the results depend on the processing

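Mgll was called lower than control ASO and DPBS in every fit run. Other members changed sides. Beside Mgll, DESeq2 called Abhd5 (2 members against control ASO), and a fit of only DPBS and Upf3b-ASO livers called Lpl and Lipg (3 members). Leaving out 1 liver gave 1 to 2 called members against control ASO, 1 to 3 against DPBS, 0 to 0 for control ASO against DPBS, 0 to 2 between the sexes and 0 to 6 for the interaction, where the 6 appeared without control ASO replicate 4, in a fit that called 3870 of all 8846 genes. Between the sexes, 2 members were called without a filter (984 of all genes), 2 with DESeq2 (1359), 0 with the length offset (690), 4 and 3 with limma at pseudocounts of 1 and 0.1 (3062 and 2972), and 0 at an adjusted p of 0.01 (393). Lipc moved to -5.14 against control ASO and -5.38 against DPBS with limma on log2(TPM + 1), where the pseudocount compresses low values, and lay between -6.16 and -5.66 and between -6.29 and -5.79 when single livers were left out. Lipa against control ASO, near 0, changed sign in several fits, with values of 0.00 to 0.10 (0.00 with the lower filter, with the length offset and with 2 groups, 0.03 without a filter, 0.02 with the replicate block and 0.10 with limma) and -0.18 to 0.09 without single livers. Leave-one-out values also crossed 0 for G0s2 (-0.89 to 0.01) and Lipe (-0.29 to 0.10) against control ASO, for Lipg between control ASO and DPBS (-0.56 to 0.05) and for the Lipc interaction (-0.48 to 0.90).

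The counts of list genes rose from 17 to 28 without control ASO replicate 3, and 0 to 3 neighbours of Lipc were called without single livers, 1 with DESeq2 and 1 with a length offset. The 3 neighbours were called without control ASO replicate 3, where 2168 of all genes were called. DESeq2 called 1584 of all genes and the length offset 622. Of the 5 genes most like Lipc, 0 were among the top 5 by Spearman's rho and 2 on log2(TPM + 1). Over all genes, calls against control ASO ranged from 334 to 1584 (434 to 2168 without single livers), against DPBS from 313 to 2478 (400 to 2540), between the sexes from 393 to 3062 (581 to 1939), between control ASO and DPBS from 0 to 45 and for the interaction from 0 to 3870. The replicate block changed no member's call for the ASO contrasts, with Mgll at -0.78 (adjusted p = 0.0059) and -0.72 (0.0087). A paired exact permutation test of the transcript shares cannot go below p = 0.12, so its count of 0 says nothing about stability. Deviations from the group means correlated as much between livers of 1 number as between other livers of 1 sex (mean r 0.52 and 0.51), so the numbers were not taken as pairs. The depth limits Lipc in treated livers to 22 to 57 counts and the shares of Pnpla2 and Lipe transcripts to a few counts in some livers.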
